A study of Mus musculus with 33 samples.

Results

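Integrins are cell surface receptors built from 1 α and 1 β subunit, and the 10 genes described here are the integrin subunit genes Itgb1, Itgb3, Itgb7, Itgav, Itga5, Itga1, Itga2, Itga6, Itga4 and Itga9 in sorted mouse endothelial cells. The genes were taken by symbol from a table of 25239 genes, all 10 were found, and the Ensembl identifier of each row pairs with its symbol in the reference gene list. The set was chosen by name with results of these data already known, and it was selected on 1 of them, the RPKM response of Itgb3 to added Runx1. For that reason the Itgb3 values in Runx1 libraries are given as a description, with no p-value.

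Each α and β pairing recognises its own ligands outside the cell and connects them through adaptors such as talin and kindlin to the actin cytoskeleton. In endothelium, receptors that share the β1 chain hold cells to collagen, laminin and fibronectin, and αvβ3 binds matrix proteins that carry the Arg-Gly-Asp sequence. On platelets the β3 chain pairs with αIIb, and β7 receptors are best known from leukocytes that home to the gut.

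The cells carried low to positive cKIT, CD31 and VE-cadherin and lacked CD41, CD45 and Ter119. At E9.5 the whole embryo was the source and at E13.5 the whole fetus, and adult cells came from livers at an age of 4 to 6 weeks. Runx1, a transcription factor required for blood cell emergence from endothelium, was expressed from a conditional knock-in allele, abbreviated CKI in the labels. At E9.5 the Ctrl group was CKI/+ and the 1Runx1 group was Cre; CKI/+. At E13.5 the Ctrl group was CKI/CKI or CKI/+, the 1Runx1 group was Cre; CKI/+ and the 2Runx1 group was Cre; CKI/CKI. In the liver the Ctrl group was CKI/CKI or CKI/+ and the 2Runx1 group was Cre; CKI/CKI. The strain was C57BL/6J-129Sv/J at E13.5 and in the liver, and C57BL/6J-129Sv/J x B6C3F1 at E9.5. All groups, Ctrl included, carried at least 1 knock-in allele, and all were treated with 2 mg tamoxifen, given 24 h before harvest at the embryonic stages and by oral gavage to the adults. The E9.5 dams were also superovulated. The genotype of Ctrl names no Cre, so Cre and the added Runx1 cannot be told apart, and which promoter drove Cre is not given in the labels.

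RNA-seq gave 13 libraries, 2 in each of 7 groups except E13.5 Ctrl, which had 1. Their recovered totals ran from 37501897 to 44181296 reads. Levels are RPKM, read counts that the authors scaled to gene length and library size, so levels of different genes can be compared. ATAC-seq, which maps open chromatin, gave 2 libraries for each of the 7 groups, and H3K4me1, a histone mark of enhancers, was profiled in E13.5 Ctrl and 2Runx1. All 10 endothelial markers, among them Pecam1 and Cdh5, were at 1 RPKM or more in every library. The labels do not say whether replicates were separate animals, so p-values measure the spread between libraries, which may be technical. In such bulk samples, fewer cells of a type and less RNA per cell cannot be told apart.

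The promoter windows are shown for 3 of the genes that had very different RNA levels in embryonic and liver endothelium. Itgb7 and Itga9 also differed, 10.4-fold and 6.83-fold between liver and E13.5 Ctrl. Their windows surround annotated starts inside the genes and are not shown. The windows of Itga1 and Itga2 held a peak of open chromatin in every group, and that of Itga4 in the embryonic groups alone. RefSeq windows on GRCm38.p6 were found for 8 of the 10 genes, all but Itgb3 and Itga6. Each window holds 300 bases, from 250 before to 50 after an annotated start, and is written 5′ to 3′ on the strand of the gene. Capitals mark matches, on either strand, to TGTGGT or TGCGGT (RUNX), AGGAAG or CGGAAG (ETS), TGANTCA (AP-1) and GGGCGG (KLF and SP). The Itga4 window is chr2:79255176-79255475 on the plus strand, the Itga2 window is chr13:114932051-114932350 on the minus strand, and the Itga1 window is chr13:115101915-115102214 on the minus strand.
Itga4: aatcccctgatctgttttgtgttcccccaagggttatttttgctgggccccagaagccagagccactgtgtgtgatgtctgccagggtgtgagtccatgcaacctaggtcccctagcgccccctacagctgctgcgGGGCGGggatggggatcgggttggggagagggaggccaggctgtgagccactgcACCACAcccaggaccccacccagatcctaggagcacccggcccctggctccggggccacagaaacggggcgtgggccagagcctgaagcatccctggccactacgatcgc
Itga2: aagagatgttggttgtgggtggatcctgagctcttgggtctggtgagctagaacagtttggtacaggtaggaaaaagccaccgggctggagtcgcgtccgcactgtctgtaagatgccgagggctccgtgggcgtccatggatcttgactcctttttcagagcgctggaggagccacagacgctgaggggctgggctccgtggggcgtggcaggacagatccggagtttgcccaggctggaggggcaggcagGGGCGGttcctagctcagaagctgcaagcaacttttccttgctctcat
Itga1: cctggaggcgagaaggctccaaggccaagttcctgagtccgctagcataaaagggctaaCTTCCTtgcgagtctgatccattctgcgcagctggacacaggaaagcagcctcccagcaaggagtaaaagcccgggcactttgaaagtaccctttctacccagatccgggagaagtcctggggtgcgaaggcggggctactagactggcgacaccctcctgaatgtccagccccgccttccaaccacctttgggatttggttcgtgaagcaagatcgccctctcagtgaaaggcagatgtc
The Itga4 window held 1 RUNX match at bases 191 to 196 and 1 KLF and SP match at bases 137 to 142. The Itga2 window held 1 KLF and SP match at bases 253 to 258, and the Itga1 window held 1 ETS match at bases 60 to 65. Itga4 was the 1 member of 8 with a RUNX match, and 22.4% of 32851 promoter windows of this length held one. ETS matches were in 46.5% of all windows and in those of Itgav, Itgb1, Itga1 and Itgb7, and KLF and SP matches in 35.7% and in those of Itga4, Itgav, Itgb1, Itga2 and Itga5. AP-1 letters were in 7.81% of windows and in that of Itga9. The Itga9 window, chr9:118711442-118711741 on the plus strand, surrounds an annotated start inside the gene, which begins at 118606709. It held no ATAC peak in any list, so its match does not describe the region where the gene begins. A match is a string of letters and does not show that a factor binds there. GC content was 64.3% in the Itga4 window, 59.3% in that of Itga2 and 56.7% in that of Itga1, against a median of 52.7% over all windows.

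Runx1 itself checks the labels. It was at 0.915 and 0.904 RPKM in E9.5 Ctrl, 14.9 and 16.2 in E9.5 1Runx1, 1.37 in E13.5 Ctrl, 28.9 and 23.7 in E13.5 1Runx1, 22.7 and 25.2 in E13.5 2Runx1, 1.19 and 1.53 in liver Ctrl, and 78.1 and 78.4 in liver 2Runx1. Every Runx1 library lay above every Ctrl library. At E13.5 the groups with 1 and 2 copies did not differ beyond their spread (log2 difference −0.13 ± 0.10 standard error, limma adjusted p = 0.503), and the liver group had the highest level.

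In every group Itgb1 had the highest level of the 10 genes and made up 51.4 to 59.8% of their summed RPKM. Itga5 and Itga6 came next in the embryonic groups, whereas Itga9 and Itga1 came next in the liver. In E9.5 Ctrl the means were 228 RPKM for Itgb1, 82.9 for Itga5, 58.5 for Itga6, 33.7 for Itga9, 15.9 for Itga1, 6.85 for Itgav, 6.63 for Itga2, 2.03 for Itga4, 1.06 for Itgb3 and 0.501 for Itgb7. The ranges of the 2 neighbours Itgav and Itga2 overlapped there, and the others did not. In liver Ctrl they were 387 for Itgb1, 152 for Itga9, 105 for Itga1, 57.6 for Itga5, 18.4 for Itga6, 7.24 for Itgav, 6.81 for Itgb3, 5.71 for Itgb7, 0.156 for Itga2 and 0.0966 for Itga4. In that order Itgav and Itgb3 were the closest neighbours, at 7.24 ± 0.209 and 6.81 ± 0.349 RPKM (SD, n = 2). Itgb3 ranked 9th of 10 in both embryonic Ctrl groups, 7th in liver Ctrl and 5th in liver 2Runx1, where it exceeded Itga6.

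**Figure D1:**
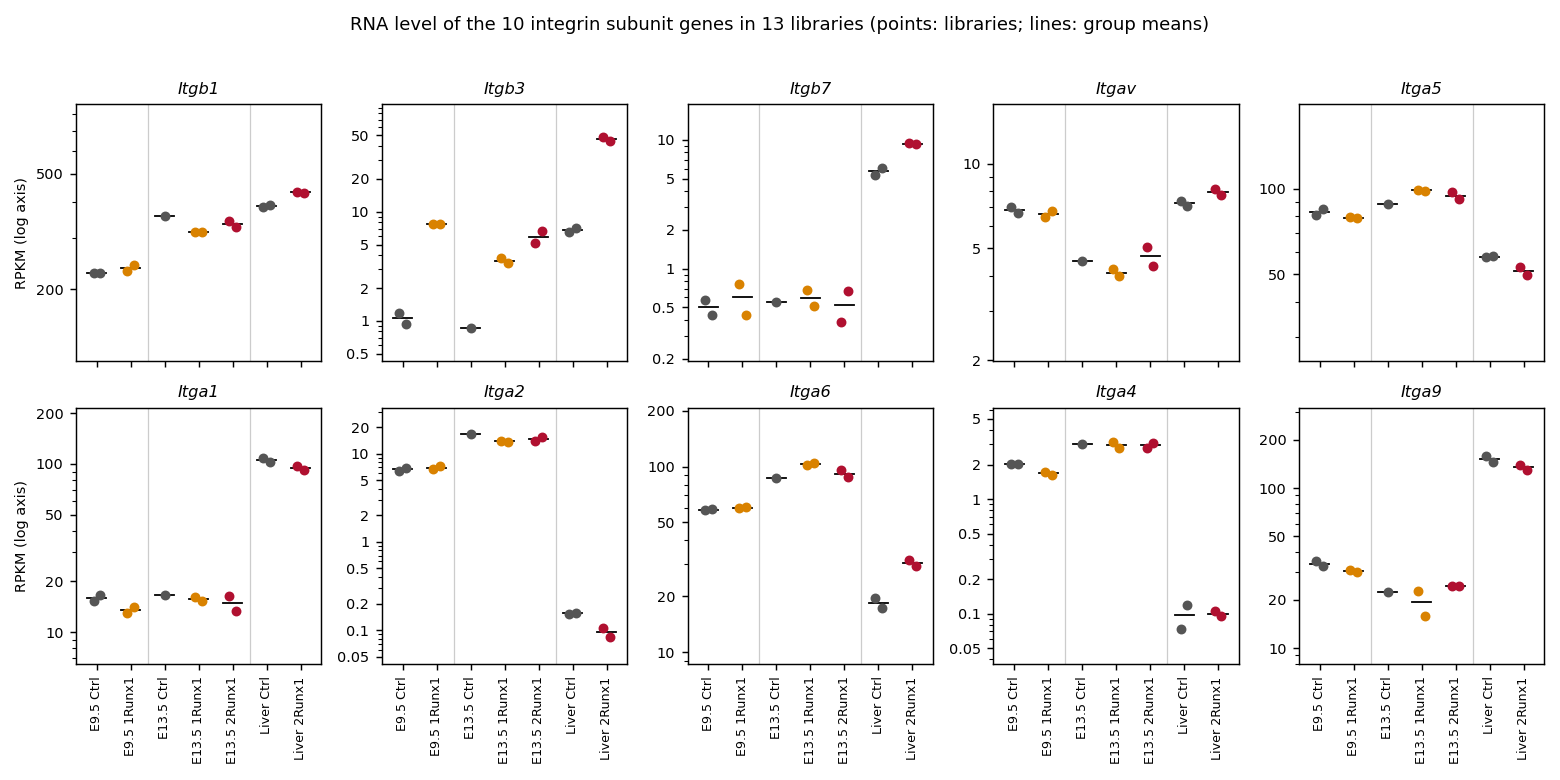
RPKM of the 10 integrin subunit genes on logarithmic axes, with 1 point per library and a line at each group mean, for the 7 groups of E9.5, E13.5 and liver endothelium. Itgb3 is higher in every Runx1 group than in the Ctrl of its stage, Itga1, Itga9 and Itgb7 are highest in the liver, and Itga2 and Itga4 are near 0.1 RPKM there.

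Itgb3 encodes the β3 chain that forms αvβ3 with the product of Itgav (Itgb3 on chromosome 11, 104608000 to 104670476, GRCm38). In E9.5 it was at 1.19 and 0.938 RPKM in Ctrl and at 7.69 and 7.71 in 1Runx1. In E13.5 it was at 0.862 in Ctrl, at 3.77 and 3.38 in 1Runx1 and at 5.15 and 6.62 in 2Runx1. In the liver it was at 6.57 and 7.06 in Ctrl and at 48.2 and 44.4 in 2Runx1. No Runx1 library overlapped the Ctrl of its stage, and liver Ctrl lay near the level that E9.5 1Runx1 reached. The means were 7.24-fold higher than in Ctrl at E9.5, 4.15-fold with 1 copy and 6.83-fold with 2 copies at E13.5, and 6.79-fold in the liver. These folds are ratios of mean RPKM, and both E13.5 values share the single Ctrl library. On the log2(RPKM + 1) scale, which understates changes of low genes, the differences were 2.08 ± 0.11, 1.30 ± 0.13, 1.88 ± 0.13 and 2.60 ± 0.11 (standard error). With 2 copies at E13.5 Itgb3 was 1.65-fold above its level with 1 copy, a log2 difference of 0.58 ± 0.11, while the replicates of 2Runx1 themselves lay at 5.15 and 6.62.

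Without added Runx1, Itgb3 was 7.91-fold higher in liver than in E13.5 endothelium (log2 difference 2.07 ± 0.13) and 6.41-fold higher than at E9.5 (1.92 ± 0.11). Among Ctrl libraries Itgb3 met the filter of 1 RPKM in 2 or more libraries only through the liver, so these are a description without p-values. The 2 embryonic Ctrl groups did not pass the test of a difference (−0.15 ± 0.13, adjusted p = 0.390), although after quantile normalization the value was −0.48 with an adjusted p of 0.0115. Runx1 in liver Ctrl, 1.19 and 1.53 RPKM, was close to the 1.37 of E13.5 Ctrl.

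Megakaryocytes and platelets also make Itgb3, so their 10 marker genes were read beside it. Their summed level was 8.50 to 8.64 RPKM in E9.5 Ctrl and 8.72 to 11.3 in 1Runx1, 34.2 in E13.5 Ctrl, 15.1 to 21.9 in 1Runx1 and 22.6 to 24.0 in 2Runx1, and 38.9 to 45.0 in liver Ctrl and 38.6 to 39.9 in liver 2Runx1. The sum was lower in both E13.5 Runx1 groups than in the 1 Ctrl library, and the ranges of the liver groups overlapped. The part of megakaryocytes and platelets in the Itgb3 differences was not tested. The liver sums lean on Pf4, at 31.5 to 37.7 RPKM in Ctrl and 25.8 to 27.1 in 2Runx1, and of the 10 markers 1 lay above Ctrl in both liver 2Runx1 libraries (Itga2b), 2 lay below and 7 overlapped. At E9.5, 2 lay above, 3 below and 5 overlapped. The share of all genes whose libraries separated in this way was not counted. Gp6 was listed at 0 in both liver groups, in both E9.5 groups and in E13.5 1Runx1, and Treml1 in both liver groups and E9.5 Ctrl. Itga2b encodes αIIb, the platelet partner of β3, and its product CD41 was excluded by the sort. It was at 4.88 and 5.15 RPKM in E9.5 Ctrl, 5.29 and 8.06 in E9.5 1Runx1, 7.10 in E13.5 Ctrl, 9.09 and 5.51 in E13.5 1Runx1, and 4.76 and 8.54 in E13.5 2Runx1. In the liver it was at 4.03 and 4.39 in Ctrl and 9.60 and 9.84 in 2Runx1. Itga2b rose with Runx1 in the liver (1.04 ± 0.25, adjusted p = 0.0117) and was not called in the 3 embryonic comparisons, where replicates were far apart.

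The 5 genes whose profile over the 13 libraries was closest to that of Itgb3 were Pilra, Madd, Nfkbie, Celf4 and Unc5a. The measure was the root mean square difference of log2(RPKM + 1) values, each centred on its own mean. It was 0.54 for Pilra, 0.75 for Madd, 0.78 for Nfkbie, 0.78 for Celf4 and 0.79 for Unc5a, against 1.44 for the median gene. Itgb3 varied by 1.42 about its own mean. Pilra went from 0.265 and 0.176 RPKM in E9.5 Ctrl to 1.05 and 1.13 in E9.5 1Runx1, and from 1.30 and 1.12 in liver Ctrl to 10.1 and 10.7 in liver 2Runx1. All 5 were highest in the 2 liver 2Runx1 libraries, so these libraries weigh heavily in the measure.

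The α chain that pairs with β3 in endothelium, αv, did not share this profile. Itgav was at 7.01 and 6.68 RPKM in E9.5 Ctrl and 6.47 and 6.77 in 1Runx1. At E13.5 it was at 4.51 in Ctrl, 4.21 and 3.99 in 1Runx1 and 5.06 and 4.34 in 2Runx1, and in the liver at 7.39 and 7.09 in Ctrl and 8.12 and 7.74 in 2Runx1. The highest and lowest libraries were thus 3.99 and 8.12 RPKM over all groups. Itgav was not called in any Runx1 comparison, with log2 differences from −0.11 to 0.12 against Ctrl and an adjusted p of 0.332 in the liver. Between Ctrl groups it fell by 0.51 ± 0.10 from E9.5 to E13.5 (adjusted p = 0.00155) and was higher in the liver than at E13.5 by 0.58 ± 0.10 (adjusted p = 0.000217). Liver and E9.5 Ctrl did not pass the test (0.07, adjusted p = 0.419).

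**Figure D2:**
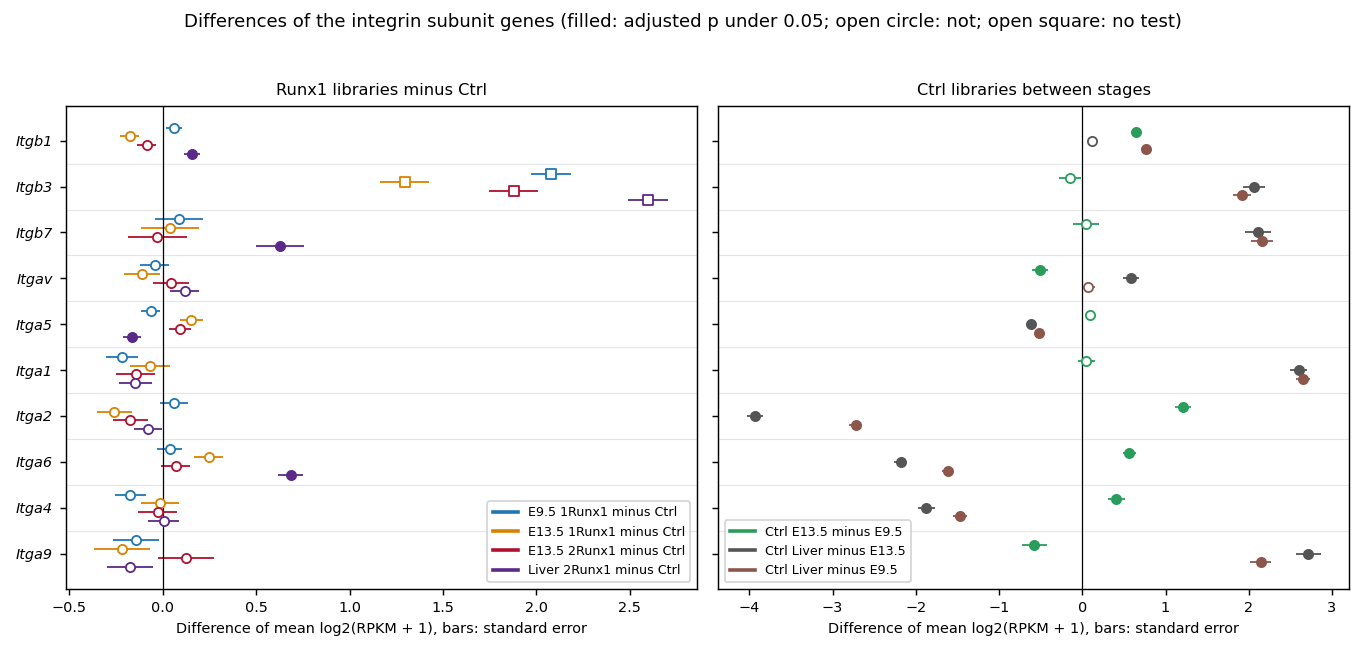
Differences of mean log2(RPKM + 1) for each integrin subunit gene, with bars for the standard error. On the left are Runx1 libraries minus the Ctrl of their stage and on the right Ctrl groups between stages, with filled circles for an adjusted p under 0.05, open circles for values that did not pass and open squares for Itgb3 values with no test. On the left Itgb3 lies from 1.30 to 2.60 and all other genes from −0.26 to 0.69. On the right, the liver differences of Itgb3, Itgb7, Itga2 and Itga4 are a description. Among Ctrl libraries these genes passed the filter only through the tissue in which they were high.

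Across the 9 other genes, added Runx1 left few differences that passed the test. At E9.5 0 of 9 were called, where 1.19% of the 12546 genes tested were. At E13.5 0 of 9 were called with 1 copy, where 10.4% of all genes were, and 0 of 9 with 2 copies, where 0.271% were. Between 2 copies and 1 copy 0 of 9 were called against 5.33% of all genes. In the liver 4 of 9 were called, 3 higher and 1 lower, against 25.3% of all genes, made up of 17.1% higher and 8.14% lower. The share of called genes that were higher there, 67.8%, was 56.6% when recovered reads were fitted by limma-voom and 54.5% after quantile normalization. The median log2 difference of the 9 genes was −0.04 at E9.5, −0.07 and −0.03 at E13.5 with 1 and 2 copies and 0.01 in the liver, beside 0.01, 0.02, 0.02 and 0.02 over all genes. The effects of 1 copy at E13.5 and at E9.5 were called different for 0 of 9, against 2.26% of all genes. These counts set a short list beside its background and show nothing particular to it.

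Among the 9, Itga6 differed most in the liver. Itga6 encodes α6, a laminin receptor chain that marks many vascular beds (chromosome 2, 71786886 to 71858427). Liver libraries had 19.6 and 17.3 RPKM in Ctrl and 31.3 and 29.1 in 2Runx1. Both 2Runx1 libraries lay above both Ctrl libraries, and the mean rose 1.64-fold from 18.4 to 30.2 RPKM (log2 difference 0.69 ± 0.07, adjusted p = 3.00e-05). At E9.5 Itga6 was at 58.0 and 59.0 in Ctrl and 59.6 and 60.5 in 1Runx1 (0.04, adjusted p = 0.895). At E13.5 it was at 87.1 in Ctrl, 103 and 104 in 1Runx1 and 95.3 and 87.5 in 2Runx1. The 1Runx1 libraries were above Ctrl without passing the test (0.24 ± 0.08, adjusted p = 0.0789), and 2Runx1 differed by 0.07 (adjusted p = 0.753). The effect of 2 copies was larger in the liver than at E13.5 by 0.62 ± 0.10 (adjusted p = 0.00377), in a comparison in which 11.1% of all genes and 2 of the 9 members were called. Even so, the highest liver level, 31.3 RPKM, stayed below the lowest embryonic level, 58.0.

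Itgb7 encodes β7, the partner of α4 and αE on lymphocytes. It was at 5.35 and 6.07 RPKM in liver Ctrl and at 9.44 and 9.28 in liver 2Runx1, and rose by 0.63 ± 0.13 (adjusted p = 0.00462). With a pseudocount of 0.1 in place of 1 the adjusted p was 0.0904. In the 9 embryonic libraries Itgb7 lay between 0.385 and 0.763 RPKM, on 48 to 94 reads, and Ctrl and Runx1 libraries overlapped at both stages. Leukocyte markers, 8 genes, summed to 30.0 to 31.4 RPKM in liver Ctrl and 29.7 in both liver 2Runx1 libraries, with 1 of 7 tested lower and 0 higher. Ptprc, which encodes CD45, was above 0 in the liver libraries and listed at 0 at E9.5. The 10 macrophage markers summed to 198 to 205 and 192 to 193 RPKM in these groups. Of the macrophage markers 1 of 10 was called higher and 2 lower. The lower sums lean on the abundant genes Lcp2 (15.2 to 15.8 RPKM in Ctrl and 13.7 to 13.8 in 2Runx1) and C1qb (53.1 to 56.4 and 27.0 to 27.4). Both 2Runx1 libraries lay above both Ctrl libraries for 5 of 8 leukocyte markers, Ptprc, Coro1a, Laptm5, Cd48 and Cd53, and for 5 of 10 macrophage markers, Csf1r, Cd68, Adgre1, Clec4f and Lyz2. They lay below for 2 of each list. The share of all genes whose libraries separated in this way was not counted. These counts, and that of the lymphocyte markers below, therefore show nothing particular to the markers. The median log2 difference was 0.12 over the leukocyte and 0.09 over the macrophage markers, beside 0.02 over all genes. The 7 lymphocyte markers summed to 2.66 to 2.79 RPKM in liver Ctrl and 1.60 to 2.43 in liver 2Runx1. Of these, 1 lay above Ctrl (Cd3g), 2 lay below (Cd3e and Nkg7) and 4 overlapped. Itgb7 was higher in liver 2Runx1, and the part of leukocytes, macrophages and lymphocytes in its difference was not tested.

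Itgb1, the β chain shared by most matrix receptors of these cells, was at 385 and 389 RPKM in liver Ctrl and at 433 and 431 in liver 2Runx1, and rose by 0.16 ± 0.04 (adjusted p = 0.0193). Itga5, the α chain of the main fibronectin receptor, was at 57.4 and 57.8 in liver Ctrl and at 53.0 and 49.7 in 2Runx1, and fell by 0.16 ± 0.05 (adjusted p = 0.0340). Neither pair of groups overlapped, but both steps were small, 387 to 432 and 57.6 to 51.3 RPKM. Neither call was kept under all settings. Leaving out any 1 of the 4 liver libraries gave an adjusted p of 0.0642 to 0.0985 for Itgb1. Leaving out Ctrl replicate 1, Ctrl replicate 2 or 2Runx1 replicate 2 gave 0.108 to 0.217 for Itga5. In the embryonic groups Itgb1 was at 228 and 227 in E9.5 Ctrl, 231 and 244 in E9.5 1Runx1, 357 in E13.5 Ctrl, 315 and 316 in E13.5 1Runx1 and 344 and 329 in E13.5 2Runx1. The 1Runx1 libraries at E13.5 lay below Ctrl by 0.18 ± 0.05 without passing the test (adjusted p = 0.0536), and without either E13.5 2Runx1 library in the shared fit the adjusted p was 0.0366. The effect of 2 copies on Itgb1 was larger in the liver than at E13.5 by 0.24 ± 0.07 (adjusted p = 0.0410), a call that most other settings did not keep (adjusted p of 0.0581 to 0.256 where it was lost). Itga5 in the embryonic groups stayed between 78.8 and 98.8 RPKM and was not called with Runx1.

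The collagen receptor chains were not called with Runx1 at any stage. Itga1, which encodes α1, was at 15.3 and 16.5 RPKM in E9.5 Ctrl and 12.95 and 14.2 in 1Runx1, a log2 difference of −0.22 ± 0.09 (adjusted p = 0.344). At E13.5 it was at 16.5 in Ctrl, 16.1 and 15.3 in 1Runx1 and 16.4 and 13.4 in 2Runx1. In the liver it was at 108 and 102 in Ctrl and 97.4 and 92.4 in 2Runx1 (−0.15 ± 0.09, adjusted p = 0.259). The Runx1 libraries were the lower ones at each stage, with no call. Pelo, a gene that lies inside Itga1, was at 29.8 to 32.7 RPKM in the liver, and because the library kit does not mark strand, reads of nested genes cannot be told apart.

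Itga2 encodes α2, the other collagen-binding chain. It was at 6.42 and 6.85 RPKM in E9.5 Ctrl and 6.74 and 7.16 in 1Runx1. At E13.5 it was at 16.7 in Ctrl, 14.0 and 13.52 in 1Runx1 and 13.9 and 15.4 in 2Runx1, where all 4 Runx1 libraries were below the 1 Ctrl library (−0.26 ± 0.09, adjusted p = 0.103, and −0.17 ± 0.09, adjusted p = 0.449). In the liver it was at 0.154 and 0.158 in Ctrl and 0.106 and 0.0830 in 2Runx1, on 19 to 37 reads a library. On the scale with a pseudocount of 1 that liver difference was −0.08 (adjusted p = 0.517), and with a pseudocount of 0.1 it was −0.40 (adjusted p = 0.0243).

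Itga4 and Itga9 encode the chains that bind VCAM-1 and the tenascin and fibronectin type of ligand. Itga4 was at 2.01 and 2.04 RPKM in E9.5 Ctrl and 1.73 and 1.63 in 1Runx1 (−0.17 ± 0.08, adjusted p = 0.454), at 3.02 in E13.5 Ctrl, 3.14 and 2.81 in 1Runx1 and 2.80 and 3.09 in 2Runx1. In the liver it was between 0.0731 and 0.120, on 23 to 39 reads. Itga9 was at 34.8 and 32.6 in E9.5 Ctrl and 30.8 and 30.1 in 1Runx1, at 22.3 in E13.5 Ctrl and 24.5 and 24.3 in 2Runx1, and at 159 and 145 in liver Ctrl and 140 and 129 in liver 2Runx1. Its E13.5 1Runx1 libraries were far apart at 22.7 and 16.0 RPKM. The difference of 1Runx1 from Ctrl was −0.22 ± 0.15 (adjusted p = 0.373), but without 1Runx1 replicate 1 it was −0.46 (adjusted p = 0.0154), so this value depends on 1 library. The same library decided the difference between 2 copies and 1 copy, which was 0.34 ± 0.12 (adjusted p = 0.130) with it and 0.58 (adjusted p = 0.00424) without it.

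Differences between the Ctrl groups of the stages spanned −3.93 to 2.72 on the log2 scale. The 9 genes other than Itgb3 spanned −0.26 to 0.69 with added Runx1. Liver and embryonic Ctrl differed both in age and in source, liver against whole embryo or fetus, and these cannot be told apart. E9.5 Ctrl also differed from liver Ctrl in strain and in superovulation of the dams. Between liver and E13.5 Ctrl, 79.3% of all genes were called (40.6% higher and 38.6% lower in the liver), and between liver and E9.5 Ctrl 85.4%, so a call there is the usual case. Among the 10, Itgb1, Itgav, Itga1, Itga5, Itga6 and Itga9 were at 1 RPKM or more in all 13 libraries. Of these Itgav, Itga1 and Itga9 were higher in liver than at E13.5, and Itga5 and Itga6 were lower. Itgb1 did not pass (0.12 ± 0.05, adjusted p = 0.0532). Itga1 was 6.37-fold higher (log2 difference 2.60 ± 0.11, adjusted p = 2.95e-09) and Itga9 6.83-fold higher (2.72 ± 0.15, adjusted p = 3.05e-08). Itga6 fell by 2.18 ± 0.08 on the log2 scale (adjusted p = 1.38e-09) and Itga5 by 0.61 ± 0.06 (adjusted p = 3.69e-06). Among Ctrl libraries the other genes passed the filter only through the tissue in which they were high. For Itgb7, Itga2 and Itga4 a difference therefore had to appear. Itgb3, at 0.862 RPKM in E13.5 Ctrl, is given above as a description. Itgb7 was 10.4-fold higher in the liver, and Itga2 and Itga4 were 107-fold and 31.2-fold lower than at E13.5.

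Set against E9.5, liver Ctrl was higher for Itgb1 (0.77 ± 0.04, adjusted p = 1.39e-08), Itga1 (2.65, adjusted p = 1.98e-10) and Itga9 (2.14, adjusted p = 2.04e-08). It was lower for Itga6 (−1.62, adjusted p = 1.13e-09) and Itga5 (−0.52, adjusted p = 1.86e-06). The 8 liver sinusoidal endothelial markers, among them Stab2 and Lyve1, summed to 12614 to 12739 RPKM in liver Ctrl, 594 in E13.5 Ctrl and 122 to 133 in E9.5 Ctrl. The macrophage markers were all at 1 RPKM or more in the liver and summed to 198 to 205 there, 21.6 at E13.5 and 1.07 to 1.33 at E9.5. What either shift contributes to the integrin differences was not tested.

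From E9.5 to E13.5, 48.8% of all genes were called. Itga2 rose 2.51-fold (1.21 ± 0.09, adjusted p = 5.12e-06), Itgb1 by 0.65 ± 0.05 (adjusted p = 6.13e-06), Itga6 by 0.56 ± 0.08 (adjusted p = 0.000264) and Itga4 by 0.41 ± 0.10 (adjusted p = 0.00806). Itgav and Itga9 fell, the latter by 0.57 ± 0.15 (adjusted p = 0.00940). Itga1 (0.05), Itga5 (0.09), Itgb7 (0.05) and Itgb3 did not pass. E13.5 Ctrl was 1 library, assumed to vary like the others, and the strains of the stages differed. Itga4 lost its call after quantile normalization (0.26, adjusted p = 0.0619).

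Open chromatin around the genes was read from 1 peak list per group that combined its libraries, so the lists have no replicate check and no test. The fold enrichment of a peak is the authors' value for that peak over its background, used here within a list. Liver lists were shorter, 39019 and 39469 peaks, than the embryonic lists of 80857 to 100268. Within 10 kb of the 10 genes, 196 regions held a peak in at least 1 list. Of these 36 were in all 7 lists, 133 in embryonic lists only and 7 in liver lists only. The same shares over all regions of the lists were not counted. With shorter liver lists, such counts, also those of single genes below, do not show a difference particular to these genes.

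At Itgb3 a peak across the lower end of the gene was in all 7 lists, with fold enrichments of 21.1 and 19.1 in E9.5 Ctrl and 1Runx1, 21.4, 21.2 and 22.1 in E13.5 Ctrl, 1Runx1 and 2Runx1, and 10.2 and 9.01 in liver Ctrl and 2Runx1. Regions inside the gene differed between lists, some with a lower rank or no peak in Runx1 lists. The region 40.8 kb from that end stood above 51.2% of the peaks in E9.5 Ctrl and 28.4% in 1Runx1. At E13.5 it stood above 37.6% in Ctrl, 25.8% in 1Runx1 and 17.2% in 2Runx1. The regions at 18.2 and 23.6 kb had a peak in E13.5 Ctrl and none in 2Runx1. The region chr11:104618595-104619127, 10.9 kb from that end, was in all 7 lists with 5.21 and 10.9 at E9.5, 4.44, 10.1 and 9.25 at E13.5, and 7.48 and 8.56 in the liver. It stood above 37.4% of the peaks of the E9.5 Ctrl list and 69.4% of the 1Runx1 list. At E13.5 it stood above 23.9% in Ctrl, 66.7% in 1Runx1 and 58.7% in 2Runx1, and in the liver above 56.4% and 67.2%. These are ranks within lists of different lengths and show no change by themselves. The regions named inside Itgb3, here and in the next paragraph, were picked after their values were seen.

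The region chr11:104638880-104639257, 31.1 kb into Itgb3, had no peak in E9.5 Ctrl and 8.99 in E9.5 1Runx1. At E13.5 it had 3.88 in Ctrl, 9.98 in 1Runx1 and 10.8 in 2Runx1, above 15.5%, 65.9% and 66.1% of the peaks of those lists in that order. At 33.1 kb, chr11:104640969-104641188 had a peak in the 3 embryonic Runx1 lists, with 5.64, 6.24 and 5.21, and in no Ctrl list and neither liver list. It was the 1 region of 196 found in all 3 embryonic Runx1 lists and in no embryonic Ctrl list. How common this pattern is among regions away from the 10 genes was not counted. The −log10 q of the region at 33.1 kb was 9.53 in E9.5 1Runx1, 10.2 in E13.5 1Runx1 and 6.63 in E13.5 2Runx1. An H3K4me1 peak of the E13.5 2Runx1 list overlapped it (fold enrichment 3.07) and none of the Ctrl list did. The H3K4me1 lists are in doubt, since the descriptions of a 2Runx1 library and its input appear exchanged, and the 2Runx1 list was the longer, 88344 against 48795 peaks. Neither the 31.1 kb nor the 33.1 kb region had a peak in the liver, where Itgb3 RNA was highest.

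**Figure D3:**
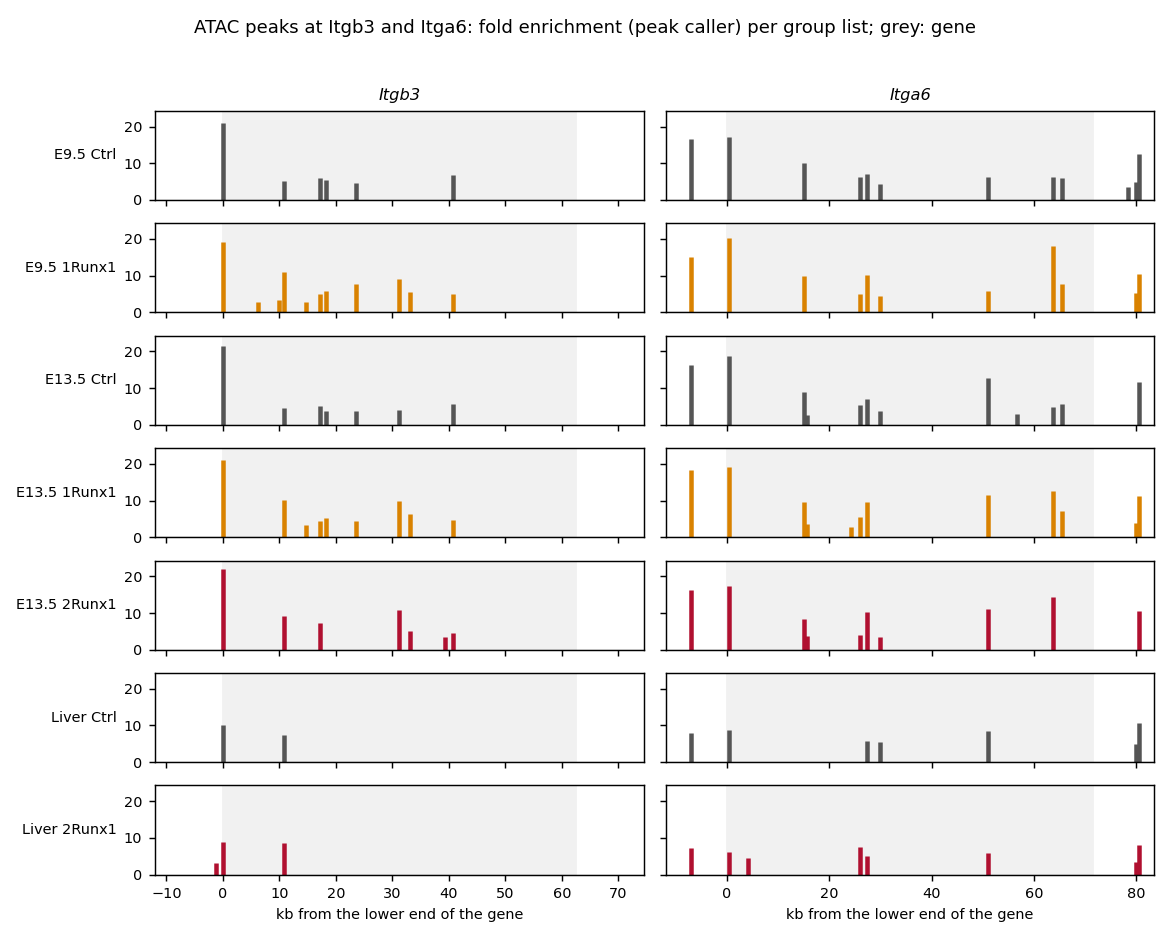
ATAC-seq peaks within 10 kb of Itgb3 and Itga6, with distance in kb from the lower coordinate of the gene on the x axis, 1 row per group's peak list, and bar height showing the authors' fold enrichment. At Itgb3 the region at 33.1 kb has a bar in the 3 embryonic Runx1 rows only, and at Itga6 the region at 63.7 kb has a bar in the 5 embryonic rows, from 4.71 to 18.0, and none in the liver rows.

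Peak counts around Itgb3 were 6 and 11 at E9.5 in Ctrl and 1Runx1, 7, 9 and 7 at E13.5 and 2 and 3 in the liver. Of the Runx1 peaks 5 of 11 at E9.5, 2 of 9 and 2 of 7 at E13.5 and 1 of 3 in the liver overlapped no Ctrl peak. The 1 in the liver, 1.3 kb before the lower end, was a weak peak of fold enrichment 3.26. Of the Itgb3 Ctrl peaks 0 of 6 at E9.5 and 0 of 2 in the liver overlapped no Runx1 peak. At E13.5 these were 0 of 7 against 1Runx1 and 2 of 7 against 2Runx1. Over all 10 genes the shares without a Ctrl peak were 10.9% at E9.5 (15 of 138), 11.0% and 5.04% at E13.5 (16 of 146 and 6 of 119) and 21.8% in the liver (12 of 55). The same shares over all peaks of these lists were 15.4%, 15.2%, 9.67% and 31.0%. The 10 genes together were below that background in each pair, and Itga1 had 0 such peaks of 18, 20 and 14 in the 3 embryonic pairs. Of Ctrl peaks near the 10 genes, 12.9%, 16.4%, 24.3% and 24.1% overlapped no Runx1 peak, beside 17.5%, 12.8%, 24.0% and 30.2% of all Ctrl peaks.

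At Itga6 the region chr2:71850260-71850919, 63.7 kb from the lower end, was in the 5 embryonic lists and in neither liver list. Its fold enrichment was 6.09 in E9.5 Ctrl and 18.0 in E9.5 1Runx1, and 4.71 in E13.5 Ctrl, 12.5 in 1Runx1 and 14.4 in 2Runx1. It stood above 46.4% and 89.9% of the peaks of the E9.5 lists and above 27.7%, 75.6% and 79.9% of those of the E13.5 lists. This region too was picked after its values were seen. It had no peak in the liver, the tissue in which Itga6 RNA was called with Runx1. In the liver, a region at 25.9 kb had 7.64 in 2Runx1 and no peak in Ctrl, and one at 4.1 kb had 4.61 in 2Runx1 and a peak in no other list. Others went the other way. The region at 29.9 kb had a peak in liver Ctrl and none in 2Runx1. The region at 0.3 kb stood above 65.9% of peaks in liver Ctrl and 48.3% in 2Runx1. At Itga6 2 of 8 liver 2Runx1 peaks overlapped no Ctrl peak, and 1 of 8 Ctrl peaks no 2Runx1 peak. Over all peaks these shares were 31.0% and 30.2%.

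Itga2 and Itga1 are neighbours on chromosome 13, 25978 bases apart and both on the minus strand, and their RNA levels moved in opposite directions between embryonic and liver endothelium. Itga2 had 25 regions, of which 4 were in all 7 lists, 19 in embryonic lists only and 0 in liver lists only. Itga1 had 31, of which 7 were in all lists, 16 in embryonic lists only and 4 in liver lists only. The Itga2 promoter window whose sequence is given had a peak in all 7 lists, at 8.94 and 8.65 in the liver lists and 12.2 to 16.4 in the embryonic lists, although its RNA was at 0.0830 to 0.158 RPKM in the liver. The Itga1 window was also open in all 7 lists, from 10.3 in liver 2Runx1 to 15.1 in E9.5 1Runx1. The Itga4 window was open in the 5 embryonic lists, at 11.9 to 14.8, and in neither liver list. Over all 32851 windows, 45.7 to 47.5% held a peak in an embryonic list and 33.5 to 33.7% in a liver list.

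Inside Itga1, 2 regions were in both liver lists and no embryonic list: chr13:115014941-115015258, 86.9 kb from the start, with 9.55 in Ctrl and 9.39 in 2Runx1, and chr13:115057832-115058126, 44.0 kb from the start, with 4.34 and 5.60. Another at 30.4 kb had 3.33 in E13.5 Ctrl and 9.06 and 7.98 in the liver lists. Inside Itga9, which also had higher RNA in the liver, 1 region was in both liver lists and no embryonic list, chr9:118662511-118663033, 56.1 kb from the start, with 7.38 and 7.88. These 3 were the 3 such regions among the 196. Itga9 had 50 of its 61 regions in embryonic lists only, beside 133 of 196 for the 10 genes together. Itgb7 had 7 regions, 2 of them in all 7 lists, and its RefSeq promoter window, chr15:102231886-102232185 on the minus strand, held a peak in E13.5 1Runx1 (4.61) and in no other list. This window surrounds an annotated start inside the gene, which begins at 102233405 on that strand.

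**Figure D4:**
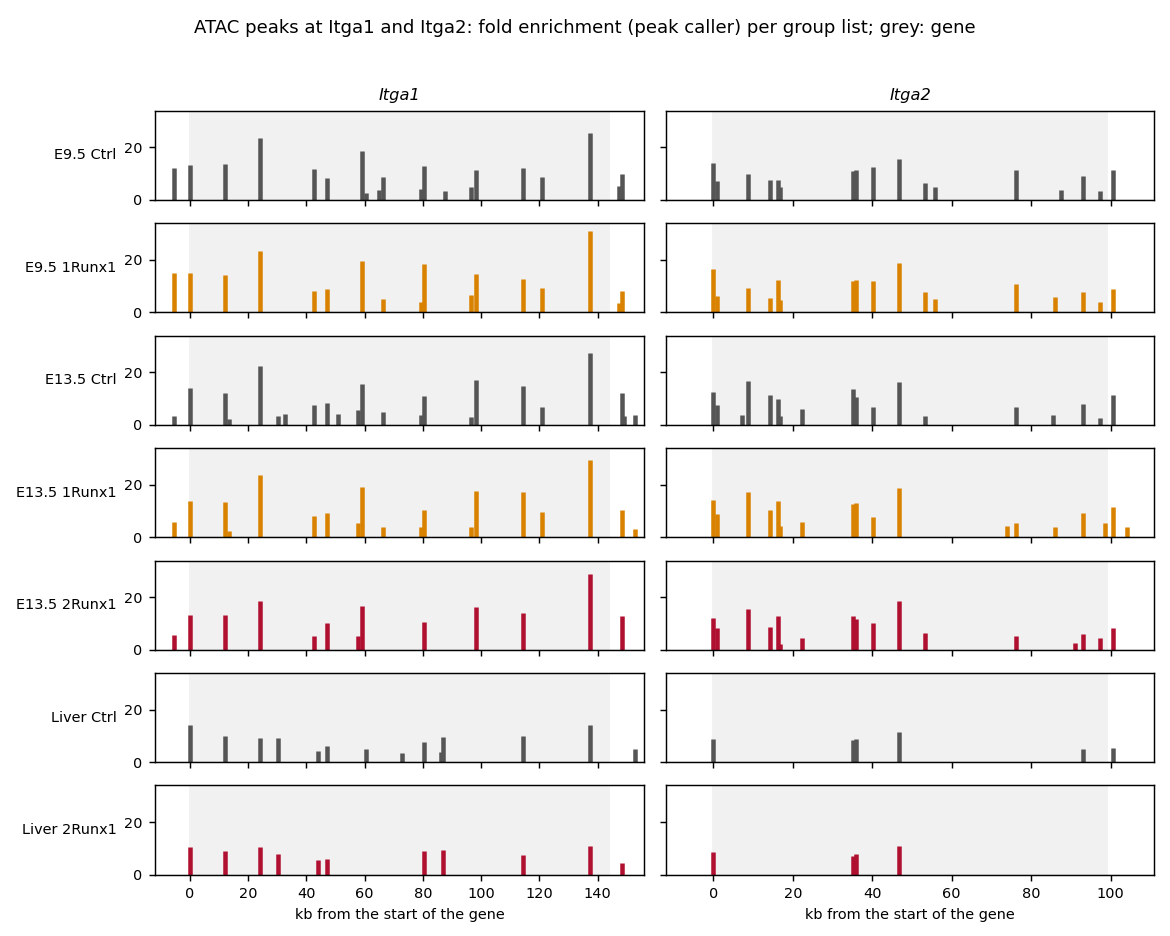
ATAC-seq peaks within 10 kb of Itga1 and Itga2, with distance in kb from the start of each gene on the x axis, 1 row per group's peak list, and bar height showing the authors' fold enrichment. Itga1 has bars at 44.0 and 86.9 kb in the liver rows only, whereas Itga2 keeps a bar at its start in all 7 rows.

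The surrounding integrin machinery was read from lists of other subunits, adaptors and ligands. Of 17 other integrin subunits 5 passed the filter, and in the embryonic Runx1 comparisons 0 of 5 were called. Itga8, which encodes a partner of β1, was higher in liver than in E13.5 Ctrl by 3.80 (5.99 to 96.6 RPKM, adjusted p = 6.12e-08). Itga3, which encodes a laminin receptor chain, was lower (−1.61, adjusted p = 3.36e-06), and so was Itgb5, which encodes another partner of αv (−1.02, adjusted p = 5.12e-05).

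Of 30 adaptors tested, 8 were higher and 0 lower with Runx1 in the liver, beside 17.1% and 8.14% of all genes. Cd9, a tetraspanin that associates with integrins, rose from 245 to 518 RPKM (1.08 ± 0.15, adjusted p = 0.000363), Vcl, which encodes vinculin, from 65.4 to 98.0 (0.57, adjusted p = 0.000110) and Actn1, an α-actinin gene, from 6.79 to 9.98 (0.50, adjusted p = 0.00192). The list's median there was 0.04 against 0.02 for all genes. At E9.5 and with 2 copies at E13.5, 0 of 30 were called. With 1 copy at E13.5, where 6.34% of all genes were higher and 4.03% lower, Cd151 (0.68, adjusted p = 0.0274) and Vasp (0.29, adjusted p = 0.0272) rose.

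Of 33 ligands tested, 2 rose at E9.5, where 1.19% of all genes were called. Npnt encodes nephronectin, a ligand of α8β1, and rose from 2.80 to 6.97 RPKM (1.07 ± 0.10, adjusted p = 0.000603), and Tnc, which encodes the α9β1 ligand tenascin-C, from 1.77 to 3.08 (0.56, adjusted p = 0.0326). Npnt also rose with 1 copy at E13.5 from 8.86 to 20.9 RPKM (1.14, adjusted p = 0.000945), together with Ltbp1 (0.46) and Mfge8 (0.26), the latter a ligand of αv integrins. In that comparison 4 ligands were lower, among them the fibrinogen genes Fgb (−1.48), Fgg (−1.04) and Fga (−1.02). Fibrinogen is a hepatocyte product. Of 9 hepatocyte markers tested there, 7 were lower, Fgb among them, and 1 was higher. The hepatocyte markers summed to 268 RPKM in Ctrl and 204 to 205 in 1Runx1. Their part in the result was not tested. With 2 copies at E13.5, 0 of 33 ligands were higher than in Ctrl, Npnt included, and 1 was lower (Fgb, −0.90). There 0.271% of all genes were called. Between 2 copies and 1 copy, 6 ligands were higher and 1 lower, where 5.33% of all genes were called. The lower one was Npnt (−0.41, adjusted p = 0.0498). In the liver 6 of 33 ligands were lower with Runx1 and 0 higher, beside 8.14% and 17.1% of all genes, led by Vegfc (−0.98, adjusted p = 5.86e-05), Postn (−0.57, adjusted p = 0.0375) and Lamb1 (−0.54, adjusted p = 0.000998). The 10 mesenchymal and mural markers summed to 87.3 to 89.5 RPKM in liver Ctrl and 42.5 to 46.6 in liver 2Runx1, with 2 of 9 tested lower and 0 higher, and their part was not tested. Between liver and E13.5 Ctrl, 9 ligands were higher and 18 lower, beside 40.6% and 38.6% of all genes, so a call was the usual case. Vcam1, a counter-receptor of α4 and α9 integrins, was among the higher ones (2.08, 11.9 to 53.8 RPKM). Madcam1, the counter-receptor of α4β7, was lower (−5.39, 46.0 to 0.117 RPKM), as was Fn1, which encodes fibronectin, the main ligand of α5β1 (−5.05).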

How the data were processed

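The members and gene lists were chosen with earlier results of these data known. The authors deposited 1 table of RPKM values, with STAR 2.7.3a, Subread 2.0.0, featureCounts and edgeR named in the submitters' processing notes. The ratio in each peak list is the authors' fold enrichment over background, and the authors also deposited a −log10 q for each peak, with Bowtie2 2.3.5.1 and MACS2 2.1.4 named in the submitters' processing notes. The score column deposited by the authors was not used. Any shift of ATAC-seq reads was not given in the sources used here. The builds named are mm10 and GRCm38.

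Whole reads were recovered from the RPKM for 20719 of 20720 genes above 0 (tolerance 0.001 reads), with totals of 37501897 to 44181296. Reads that share a common factor in all libraries come back too low. Genes that reached 1 RPKM in 2 or more libraries, 12546 in number, were analysed as log2(RPKM + 1), a pseudocount of 1. Limma 3.58.1 in R 4.3.3 was fitted to 7 group means over all 13 libraries with an intensity trend (6 residual and 4.3 prior degrees of freedom), and it was tested on simulated data. Tests were two-sided, with Benjamini-Hochberg adjustment over all genes tested and a threshold of 0.05, and every adjusted p is limma's. The SD of log2 differences between replicates was 0.136 to 0.246. Errors of log2 differences are standard errors.

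All 10 members were named. Other subunits, adaptors and ligands were named where called, up to 3 each way by size in a comparison, with Itga2b always. Itgb3 was at 1 RPKM or more in 11 libraries, Itga2 and Itga4 in the 9 embryonic ones, Itgb7 in the 4 liver ones and the other 6 members in all 13. Peaks within 10 kb of a gene were compared by an overlap of at least 1 base, and overlapping peaks of the 7 ATAC lists were merged into regions. Alternatives covered the pseudocount, filter, normalization, trend, replicate block, samples in the fit and leaving out each library. For peaks they covered a stricter q, a larger overlap, and other windows. Limma-voom on recovered reads was added after seeing the data. Genes nested in or overlapping members (Pelo, Cerkl, Mir6963) share unstranded reads with them.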

Additional observations from a re-analysis of the deposited data

Results flagged for a closer look

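The effect of 2 added Runx1 copies differed between liver and E13.5 endothelium for 2 of the 9 members tested. In this comparison 11.1% of all genes were called, so the count shows nothing particular to the members. The difference between the effects (liver minus E13.5, log2 scale, limma over all genes) was 0.62 for Itga6 (adjusted p = 0.00377) and 0.24 for Itgb1 (adjusted p = 0.0410). Both liver 2Runx1 libraries lay above both liver Ctrl libraries for each gene. At E13.5 the comparison rests on 1 Ctrl library. Most other settings did not keep the Itgb1 call. The difference between the effects on Runx1 RNA itself was 1.68 ± 0.16 (standard error).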

How the results depend on the processing

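No call reversed direction under any setting tried. The count of members called with 1 copy at E13.5, 0 in the report, was 2 with limma-voom (Itgb1 −0.19, adjusted p = 0.0327, and Itga2 −0.29, adjusted p = 0.0248) and 0 to 1 when 1 library was left out. For 2 copies against 1 it was 0 to 1 when 1 library was left out. In the liver the count of 4 was 2 with no intensity trend and 2 to 4 when 1 library was left out. For the difference of 2-copy effects between liver and E13.5 the count of 2 was 1 with no filter, 1 with no intensity trend, 1 with the replicate block and 1 to 3 when 1 library was left out.

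Calls of single genes were also lost. For Itgb1 in the liver the adjusted p was 0.130 after quantile normalization, 0.0637 with no trend and 0.0559 with limma-voom. For Itga5 in the liver it was 0.0730 with no trend and 0.0546 with the liver libraries alone. For Itgb1 between liver and E13.5 Ctrl a call was gained (0.12, adjusted p = 0.0405 to 0.0491) when 1 library of E9.5 1Runx1 or E13.5 2Runx1 was left out. The Itga6 calls were kept under every setting tried. For the difference of effects Itga5 gained a call after quantile normalization (adjusted p = 0.0432) and Itgb7 without E13.5 2Runx1 replicate 2 (0.79, adjusted p = 0.0316).

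Peaks near members with no Ctrl peak numbered 15, 16, 6 and 12 at E9.5, at E13.5 with 1 and 2 copies and in the liver. With a −log10 q of at least 10 they numbered 1, 3, 0 and 0, and with 50% of the peak covered 24, 25, 17 and 17. With the gene body alone they numbered 10 at E13.5 with 1 copy and 7 in the liver, and with 50 kb each side 25 and 10 at E13.5 with 1 and 2 copies. The peak counts therefore depend on weak peaks.

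The replicate numbers did not pair the libraries: deviations of same-numbered libraries correlated at −0.061 to 0.107 across genes. With the replicate number as a block, Itgb1 lost its call for the difference of effects (0.24, adjusted p = 0.0581), and no other member changed its call.

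Over all genes, fitting each stage alone changed the number called from 149 to 37 at E9.5, from 1300 to 5 and from 34 to 0 at E13.5 with 1 and 2 copies, and from 669 to 9 between copies. For 2 copies at E13.5 it was 149 with no filter, 58 with limma-voom and 18 with a pseudocount of 0.1. Leaving out 1 library, which leaves 1 in its group, also changed the number called at E9.5, at E13.5 and in the liver (3170 with all). It was lowest without Ctrl replicate 2 at E9.5 and without 2Runx1 replicate 1 in the liver. At E13.5 with 1 and 2 copies it was lowest, and the same, without either E9.5 Ctrl replicate. The share of called genes that were higher with 1 copy at E13.5 was 61.2%, against 49.3% after quantile normalization and 46.9% with limma-voom. With 2 copies it was 55.9% against 37.9% with limma-voom, and between copies 40.7% against 52.1% and 55.3%.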
